A study of Mus musculus with 6 samples.

Results

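The genes of cholesterol and fatty acid synthesis that are known targets or parts of the SREBP pathway were examined in the RAW264.7 line, macrophage-like mouse cells established from a tumour induced by a leukemia virus. The set was chosen by name and pathway role, with earlier results of these data known. It held 32 of the 28836 genes in the deposited table, and all 32 were among the 17124 genes with enough counts to be tested. Of these, 7 act in the early mevalonate steps, 11 in the squalene and sterol steps, 8 in fatty acid synthesis, and 6 in SREBP control and sterol transport. The set does not hold every enzyme of the pathway.

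Poly(A) RNA was sequenced in 3 GB2-treated and 3 untreated libraries of this line. GB2 is a prodrug that links MSA-2, which activates the innate immune protein STING, to artesunate, which the study used against the myeloid receptor TREM2. The link is a disulfide cleaved by glutathione. The labels give no dose and no exposure time, and no vehicle for the untreated cells. The study states a dose and an exposure time for its co-culture experiment, which are not repeated here. The study reports that the macrophages it sequenced were kept below tumour cells in a culture with a porous divider, but the labels name no tumour cells. Both groups are the same cell line with no genetic change named. The study describes its replicates as biological, but the labels do not say whether they came from separate cultures. Each p-value therefore reflects only the spread among these libraries, which may be technical.

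SREBP proteins are transcription factors made as precursors in the membrane of the endoplasmic reticulum. When sterols are low, SCAP carries them to the Golgi apparatus, where proteases release the active part. When sterols are high, INSIG proteins hold SCAP back. SREBP-2, the product of Srebf2, mainly drives cholesterol synthesis, and SREBP-1, the product of Srebf1, mainly drives fatty acid synthesis. In macrophages the same pathway supplies lipid for membranes and is known to be adjusted when the cells are activated. Oxysterols, made from cholesterol, act through LXR receptors, which in turn raise Srebf1, Scd and cholesterol export genes.

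Library totals ranged from 62660734 to 77337345 estimated counts. Levels are given in FPKM as the authors deposited them, that is, fragments scaled to transcript length and library total. GB2-treated replicates 2 and 3 stood apart from GB2-treated replicate 1. The summed level of 10 hepatocyte markers reached 542 FPKM in GB2-treated replicate 2 and 523 FPKM in replicate 3. It was 3.75 FPKM in replicate 1 and 0.53 to 0.67 FPKM in the untreated libraries. Apoa2 alone gave 3.41 FPKM of the sum in replicate 1, against 0.15 to 0.31 FPKM in untreated libraries. Albumin was listed at 0 in GB2-treated replicate 1 and in every untreated library. Summed epithelial markers followed the same division, at 0.98, 52.2 and 59.3 FPKM in the GB2-treated libraries against 1.06 to 1.45 FPKM in the untreated ones. The 5 adipocyte markers in the table, of 7 listed, summed to at most 0.78 FPKM in any library. Skeletal muscle markers summed to 1.11, 7.37 and 11.9 FPKM in the GB2-treated libraries against 0.88 to 1.18 FPKM in the untreated ones, and fibroblast markers to 0.82, 3.18 and 3.65 against 0.66 to 0.94 FPKM. The neural list ran the other way, at 13.6, 7.41 and 7.38 FPKM in the GB2-treated libraries against 22.3 to 24.1 FPKM in the untreated ones. Macrophage markers were present in all 6 libraries, with 9 of 10 at 1 FPKM or more in both groups. They summed to 7603 to 8761 FPKM in the GB2-treated libraries against 15295 to 15836 FPKM in the untreated ones. Lyz2 made up most of that sum, at a mean of 6552 FPKM in GB2-treated and 13128 FPKM in untreated libraries. Every GB2-treated library lay below the untreated ones for Lyz2, Csf1r, Cd68, Adgre1, Spi1 and Cd14 (means of 651 and 699 FPKM). Itgam lay above them (means of 202 and 157 FPKM), and Fcgr1, Ptprc and Mertk overlapped. In such bulk RNA, fewer cells of a type and less RNA per cell cannot be told apart. Results that rest on GB2-treated replicates 2 and 3 are given below with and without them. Fits without them hold only GB2-treated replicate 1, so their spread comes from the untreated libraries alone. Calls from those fits do not reflect the spread among GB2-treated libraries.

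Across the 32 genes, GB2-treated cells had lower transcript levels of Acat2, Mvd, Dhcr7 and Fasn and higher levels of Scd1 and Scd2, with Scd1 raised in replicates 2 and 3 only. A gene was called at a false discovery rate (FDR) under 0.05 in edgeR's quasi-likelihood test and a change of at least 2-fold. By that rule 4 members (12.5%) were called lower, where 7.73% of all tested genes were, and 2 members (6.25%) were called higher, where 13.4% of all tested genes were. The remaining 26 were not called. At the FDR alone, 16 members (50%) were lower against 29.6% of tested genes, 6 (18.8%) were higher against 26.8%, and 10 passed in neither direction. In 18 members (56.2%) all GB2-treated libraries lay below all untreated libraries, against 34.5% of tested genes, and in 6 (18.8%) they lay above, against 27.4%. The median log2 change was -0.25 over the members and 0.01 over all tested genes. When GB2-treated replicates 2 and 3 were left out, 4 members were called lower and 1 higher, with 7.89% and 7.85% of 18242 tested genes, and the same 4 genes were lower.

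**Figure D1:**
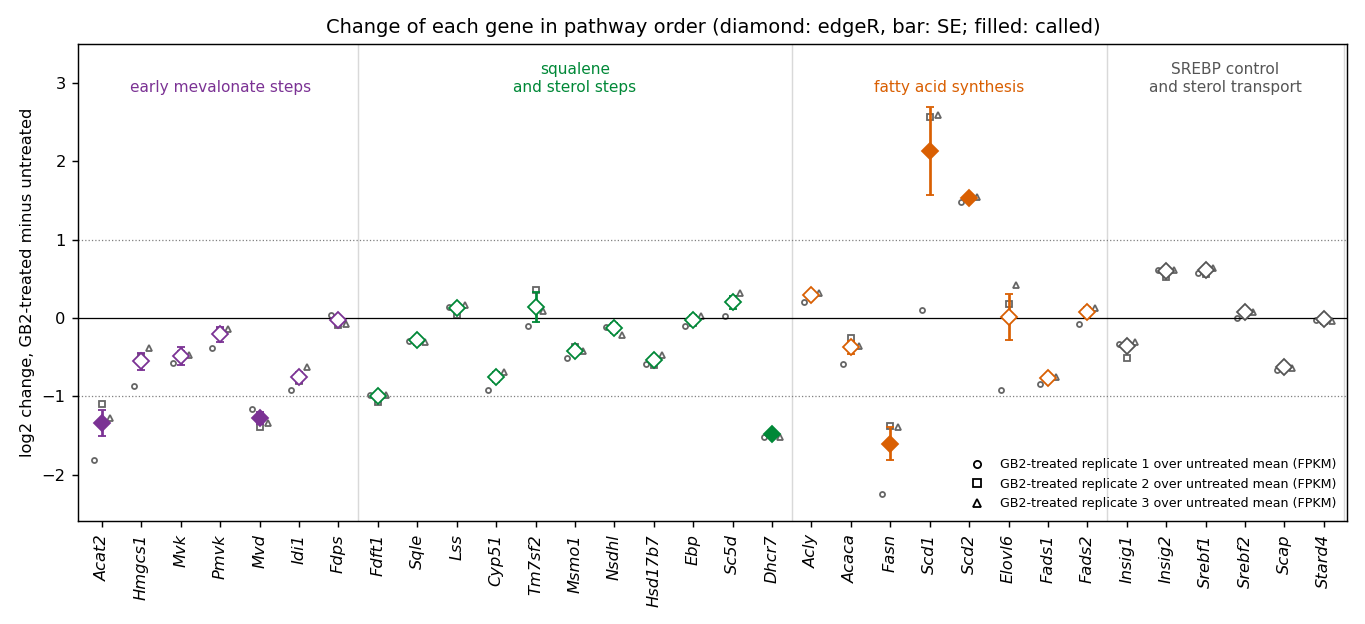
Log2 change of each of the 32 genes in pathway order, GB2-treated minus untreated (vertical axis), with edgeR estimates as diamonds and SE as bars. Filled diamonds are called genes, dotted lines mark the 2-fold limits, and small open symbols are the 3 GB2-treated libraries over the untreated mean. Most sterol genes lie below 0, Scd1 and Scd2 lie above 1, and replicate 1 sits apart from replicates 2 and 3 for Scd1, Elovl6, Fasn and Acat2.

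The start regions of members were read from RefSeq's promoter table (build GRCm38.p6, the same assembly as the mm10 of the deposited coordinates), which gives 250 bases before to 50 bases after each start. The table held 33 promoters for 25 of the 32 genes. Fdps, Fdft1, Sqle, Scd1, Scd2, Fads1 and Stard4 were not matched. Both strands were searched for short motifs. The core of the sterol regulatory element, TCACNCCAC, occurred in 1 of the 25 genes, Hmgcs1, and in 1.24% of all 32851 promoters. CCAAT, the box bound by NF-Y, occurred in 21 of the 33 member promoters (63.6%), belonging to 20 genes, and in 37.4% of all promoters. GGGCGG, the Sp1 box, occurred in 75.8% of member promoters and 35.7% of all promoters. The E-box CACGTG occurred in 18.2% against 7.15%, and ACGTG, the hypoxia element core that lies within this E-box, in 24.2% against 19.6%. These matches describe letters in these windows only.

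Hmgcs1 is shown because it was the member with the sterol core, and Mvd, Dhcr7 and Fasn because they were called lower and hold CCAAT. The last 3 were chosen after their values were seen. Dhcr7 had 3 promoters in the table, and the 1 shown is the 1 with CCAAT. The promoter of Acat2, the other gene called lower, held neither motif. Capitals mark TCACNCCAC and CCAAT on either strand, where ATTGG is CCAAT read from the other strand. In Hmgcs1 the core reads TCACCCCAC at bases -137 to -129 from the start site.
Hmgcs1, chr13:119690101-119690400, plus strand: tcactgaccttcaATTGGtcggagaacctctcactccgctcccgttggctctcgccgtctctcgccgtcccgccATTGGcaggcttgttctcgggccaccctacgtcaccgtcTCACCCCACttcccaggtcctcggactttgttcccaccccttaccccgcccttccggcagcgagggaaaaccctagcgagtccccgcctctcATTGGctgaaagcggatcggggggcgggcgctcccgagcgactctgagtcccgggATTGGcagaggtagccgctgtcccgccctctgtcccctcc
Mvd, chr8:122443373-122443672, minus strand: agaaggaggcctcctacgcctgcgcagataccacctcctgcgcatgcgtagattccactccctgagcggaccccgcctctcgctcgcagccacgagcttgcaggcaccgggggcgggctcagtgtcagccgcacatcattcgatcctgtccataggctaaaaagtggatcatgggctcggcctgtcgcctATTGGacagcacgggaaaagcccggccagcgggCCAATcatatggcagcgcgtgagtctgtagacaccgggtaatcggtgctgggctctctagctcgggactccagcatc
Dhcr7, chr7:143829964-143830263, plus strand: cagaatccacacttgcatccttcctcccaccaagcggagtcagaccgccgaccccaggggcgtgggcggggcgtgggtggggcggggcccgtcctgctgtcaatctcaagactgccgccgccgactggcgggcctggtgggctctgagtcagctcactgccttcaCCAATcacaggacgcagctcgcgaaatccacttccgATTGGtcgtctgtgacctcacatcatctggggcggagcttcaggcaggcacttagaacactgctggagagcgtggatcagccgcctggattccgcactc
Fasn, chr11:120824498-120824797, minus strand: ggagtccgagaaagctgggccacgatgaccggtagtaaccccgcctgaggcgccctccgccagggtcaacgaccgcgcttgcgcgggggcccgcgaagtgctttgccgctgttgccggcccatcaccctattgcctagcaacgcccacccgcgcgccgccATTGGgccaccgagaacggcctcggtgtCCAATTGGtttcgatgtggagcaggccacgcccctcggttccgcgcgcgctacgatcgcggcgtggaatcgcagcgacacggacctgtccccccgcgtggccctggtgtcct
In Hmgcs1, 3 of the 4 CCAAT boxes lie before the start site, and the fourth lies at base 11 after it. Mvd holds CCAAT boxes at -60 and -27, and Dhcr7 at -85 and -49. In Fasn the boxes at -62 and -59 overlap, on opposite strands, and a further box lies at -90.

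The early mevalonate steps turn acetyl-CoA into the isoprenoid building blocks. Of these 7 genes, 2 were called lower (28.6%, against 7.73% of all tested genes) and 0 higher (against 13.4%). By FDR without the fold limit, 5 were lower (71.4%, against 29.6%), and the median log2 change was -0.55. Their summed level was 99.0 ± 1.79 FPKM in GB2-treated and 147 ± 3.32 FPKM in untreated libraries (SD, n = 3 each).

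Acat2 (ENSMUSG00000023832, chr17:12942890-12960747) encodes the cytosolic thiolase that joins acetyl-CoA units at the start of the pathway. It stood at 3.51, 5.76 and 5.09 FPKM in GB2-treated libraries, against 12.0, 12.3 and 12.7 FPKM in untreated libraries. All GB2-treated libraries were lower than all untreated ones, and GB2-treated replicate 1 was the lowest. Acat2 fell 2.54-fold (log2 change -1.34 ± 0.17 SE, edgeR FDR 0.000357). GB2-treated replicate 1 alone gave a log2 change of -1.72.

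Mvd (ENSMUSG00000006517, chr8:122433601-122443422), the decarboxylase that yields isopentenyl diphosphate, stood at 17.9, 15.3 and 15.9 FPKM in GB2-treated libraries, against 42.1, 41.1 and 37.6 FPKM in untreated libraries. The groups did not overlap, and the GB2-treated libraries lay close together. Mvd fell 2.43-fold (log2 change -1.28 ± 0.08 SE, edgeR FDR 6.29e-06). Among the 32 genes it had the lowest level in GB2-treated replicates 2 and 3 relative to replicate 1, with a ratio of 0.869.

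Hmgcs1 encodes the synthase that makes HMG-CoA. It stood at 10.97, 14.1 and 15.3 FPKM in GB2-treated libraries, against 19.7, 19.5 and 20.8 FPKM in untreated libraries. The groups did not overlap, and the 1.47-fold difference (log2 change -0.55 ± 0.11 SE, edgeR FDR 0.00342) did not reach 2-fold. Idi1, the isomerase that balances the isoprenoid building blocks, stood at 6.54, 7.05 and 7.98 FPKM in GB2-treated libraries, against 12.0, 11.8 and 13.2 FPKM in untreated libraries, a log2 change of -0.76 ± 0.07 SE (edgeR FDR 9.04e-05). It was lower in every GB2-treated library but also short of 2-fold.

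The kinases that act between these steps were nearer to the untreated level. Mvk, which phosphorylates mevalonate, stood at 5.10, 5.49 and 5.45 FPKM in GB2-treated libraries, against 7.77, 8.60 and 6.38 FPKM in untreated libraries (log2 change -0.48 ± 0.12 SE, edgeR FDR 0.0106). Pmvk, which adds the next phosphate, had a log2 change of -0.21 ± 0.09 SE and did not pass the test (edgeR FDR 0.0954). Its GB2-treated libraries, at 7.73 to 9.08 FPKM, nonetheless all lay below the untreated ones, at 9.36 to 10.7 FPKM. Fdps makes farnesyl diphosphate, the branch point towards sterols, dolichol, ubiquinone and protein prenylation. It was the most abundant of the 7 genes per transcript length in each library and stood at 45.7, 41.8 and 42.2 FPKM in GB2-treated libraries, against 44.2, 45.8 and 43.4 FPKM in untreated libraries. The groups overlapped (log2 change -0.02 ± 0.05 SE, edgeR FDR 0.739). Of its exonic bases in GENCODE M21, 26.7% are shared with Gm43738, a gene model on the same strand. What this sharing does to the Fdps value was not tested.

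The squalene and sterol steps take farnesyl diphosphate to cholesterol. Of these 11 genes, 1 was called lower (9.09%, against 7.73% of all tested genes) and 0 higher (against 13.4%). At the FDR alone 6 were lower (54.5%, against 29.6%) and 1 higher (9.09%, against 26.8%), and the median log2 change was -0.29. Their summed level was 94.6 ± 2.67 FPKM in GB2-treated and 128 ± 1.09 FPKM in untreated libraries (SD, n = 3 each). With the early steps included, 3 of 18 sterol enzymes (16.7%, against 7.73% of all tested genes) were called lower and 0 higher (against 13.4%). At the FDR alone 11 were lower (61.1%, against 29.6%) and 1 higher (5.56%, against 26.8%), and 13 (72.2%, against 34.5%) lay wholly below the untreated libraries.

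Dhcr7 (ENSMUSG00000058454, chr7:143823145-143848410) encodes the reductase that yields cholesterol from its dehydro precursor. It stood at 4.45, 4.63 and 4.44 FPKM in GB2-treated libraries, against 13.1, 12.9 and 12.3 FPKM in untreated libraries. The GB2-treated libraries differed little among themselves, and the groups were far apart. Dhcr7 fell 2.795-fold (log2 change -1.48 ± 0.05 SE, edgeR FDR 5.13e-07), and GB2-treated replicate 1 alone gave -1.44. By level it ranked 28 of the 32 genes in GB2-treated libraries and 17 in untreated libraries.

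Fdft1, squalene synthase and the first enzyme committed to sterols, stood just outside the 2-fold limit. It stood at 9.11, 8.57 and 9.06 FPKM in GB2-treated libraries, against 17.6, 18.8 and 17.5 FPKM in untreated libraries, a 1.99-fold difference (log2 change -0.996 ± 0.05 SE, edgeR FDR 1.94e-06). It was called in 5 of 14 alternative fits. Of its exonic bases, 18.3% overlap the opposite-strand gene Ctsb, the lysosomal protease cathepsin B. Ctsb stood at 526, 471 and 491 FPKM in GB2-treated libraries, against 1273, 1286 and 1243 FPKM in untreated libraries (log2 change -1.34 ± 0.05 SE, edgeR FDR 7.33e-07). The libraries keep the strand, but the strand setting of the counting is not given in the sources used here, and the part of Ctsb in the Fdft1 value was not tested.

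Several oxygen-using enzymes were lower without reaching 2-fold. Cyp51, the cytochrome P450 that demethylates lanosterol, stood at 6.89, 7.81 and 8.07 FPKM in GB2-treated libraries, against 12.8, 12.8 and 13.4 FPKM in untreated libraries (log2 change -0.76 ± 0.06 SE, edgeR FDR 3.17e-05). Msmo1, the methyl sterol oxidase that acts after it, stood at 13.4, 14.8 and 14.3 FPKM against 19.0, 19.7 and 18.8 FPKM in untreated libraries (log2 change -0.42 ± 0.05 SE, edgeR FDR 0.000311). Sqle, squalene epoxidase and a rate-limiting enzyme of the pathway, stood at 16.02, 15.93 and 15.99 FPKM in GB2-treated libraries, against 19.6, 19.4 and 20.1 FPKM in untreated libraries (log2 change -0.29 ± 0.03 SE, edgeR FDR 0.000292). These 3 genes did not overlap between groups. Sc5d, a sterol desaturase, had a log2 change of 0.20 ± 0.09 SE with overlapping groups (edgeR FDR 0.0875). Hsd17b7, a ketosteroid reductase of the demethylation complex, stood at 4.57, 4.54 and 4.98 FPKM in GB2-treated libraries, against 6.60, 6.87 and 7.23 FPKM in untreated libraries (log2 change -0.54 ± 0.05 SE, edgeR FDR 9.71e-05).

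Other enzymes of these steps lay near the untreated level. Lss, which closes squalene epoxide into lanosterol, was the only sterol enzyme higher at the FDR alone, at 6.35, 5.94 and 6.45 FPKM in GB2-treated libraries against 5.74, 5.82 and 5.73 FPKM in untreated libraries (log2 change 0.13 ± 0.04 SE, edgeR FDR 0.0183). It did not pass the FDR in 9 of 14 alternative fits, where the adjusted p ran from 0.053 to 0.117. Nsdhl, the dehydrogenase of the demethylation complex, had a log2 change of -0.13 ± 0.07 SE (edgeR FDR 0.142). Ebp, a sterol isomerase, had -0.03 ± 0.07 SE (edgeR FDR 0.728). Tm7sf2, a sterol reductase, was the least abundant of the 32 genes in both groups, at 0.96 to 1.32 FPKM in GB2-treated and 0.87 to 1.18 FPKM in untreated libraries, and had a log2 change of 0.14 ± 0.19 SE (edgeR FDR 0.569). It shares 12.1% of its exonic bases with Vps51 on the same strand. None of Nsdhl, Ebp and Tm7sf2 passed the test.

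The fatty acid genes were divided. Of 8 genes, 1 was called lower (12.5%, against 7.73% of all tested genes) and 2 higher (25%, against 13.4%). The FDR alone was passed by 3 genes that were lower (37.5%, against 29.6%) and 3 higher (37.5%, against 26.8%). The median log2 change was 0.04. Without GB2-treated replicates 2 and 3 the median was -0.25, and 1 gene was called lower and 1 higher. Their summed level was 464, 586 and 597 FPKM in GB2-treated libraries, against 319, 319 and 316 FPKM in untreated libraries. Scd2 was the largest part of that sum in every library.

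Fasn (ENSMUSG00000025153, chr11:120805846-120824547) encodes fatty acid synthase, which builds palmitate from acetyl and malonyl units. It stood at 6.75, 12.3 and 12.3 FPKM in GB2-treated libraries, against 32.3, 33.2 and 30.8 FPKM in untreated libraries. Every GB2-treated library was far below the untreated ones, with replicate 1 lowest. Fasn fell 3.04-fold (log2 change -1.61 ± 0.21 SE, edgeR FDR 0.000467), and it ranked 16 of the 32 genes by level in GB2-treated libraries and 8 in untreated libraries. GB2-treated replicate 1 alone gave a 4.49-fold decrease (log2 change -2.17).

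The enzymes that supply fatty acid synthase did not follow it in size. Acly, which cleaves citrate into acetyl-CoA in the cytosol, stood at 67.9, 73.0 and 74.1 FPKM in GB2-treated libraries, against 60.7, 58.0 and 58.9 FPKM in untreated libraries (log2 change 0.29 ± 0.05 SE, edgeR FDR 0.0011). Its groups did not overlap, in the opposite direction to Fasn. Acaca, acetyl-CoA carboxylase, which makes malonyl-CoA, stood at 3.00, 3.80 and 3.53 FPKM in GB2-treated libraries, against 4.36, 4.44 and 4.77 FPKM in untreated libraries (log2 change -0.38 ± 0.09 SE, edgeR FDR 0.00853). Neither reached 2-fold.

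Scd2 (ENSMUSG00000025203, chr19:44293674-44306864) and Scd1 (ENSMUSG00000037071, chr19:44394455-44407709) are neighbouring genes for stearoyl-CoA desaturases, which turn saturated into monounsaturated fatty acids. Scd2 stood at 298, 306 and 313 FPKM in GB2-treated libraries, against 105, 110 and 106 FPKM in untreated libraries. It was the most abundant of the 32 genes in both groups, and its 3 GB2-treated libraries were alike. Scd2 rose 2.89-fold (log2 change 1.53 ± 0.04 SE, edgeR FDR 1.50e-07), and GB2-treated replicate 1 alone gave a 2.95-fold increase (log2 change 1.56).

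Scd1 stood at 20.97, 116 and 118 FPKM in GB2-treated libraries, against 20.01, 19.0 and 19.7 FPKM in untreated libraries. GB2-treated replicate 1 was at the untreated level. Replicates 2 and 3, the libraries with hepatocyte and epithelial transcripts and with more muscle and fibroblast ones, were far above it. Over all libraries Scd1 was called higher (4.38-fold, log2 change 2.13 ± 0.56 SE, edgeR FDR 0.0141). Without GB2-treated replicates 2 and 3 the log2 change was 0.18, short of 2-fold. With any 1 untreated library left out the log2 change stayed at 2.09 to 2.13, but the edgeR FDR was 0.0776 to 0.0809. The limma fits on FPKM gave adjusted p of 0.0625 and 0.0548 at log2 changes of 1.71 and 1.75. Scd1 made up 6.58, 27.4 and 27.4% of the summed Scd1 and Scd2 level in GB2-treated libraries, against 16.03, 14.8 and 15.6% in untreated libraries. The part of transcripts from any of these other cell types in the Scd1 value was not tested.

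**Figure D2:**
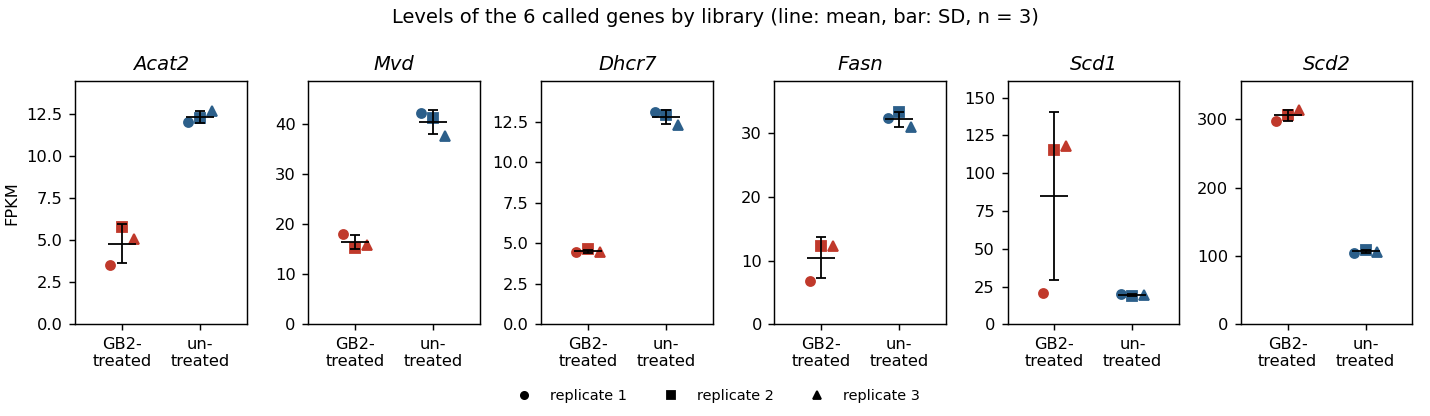
FPKM (vertical axes, each starting at 0) of the 6 called genes in GB2-treated libraries (left in each panel) and untreated libraries (right), with mean and SD as bars and symbols for the replicate number. Acat2, Mvd, Dhcr7 and Fasn are lower and Scd2 is higher in every GB2-treated library, whereas Scd1 at 20.97 FPKM in GB2-treated replicate 1 lies beside the untreated libraries.

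Elovl6, which elongates palmitate, followed the same division between libraries as Scd1. It stood at 1.53, 3.26 and 3.86 FPKM in GB2-treated libraries, against 2.82, 2.79 and 3.05 FPKM in untreated libraries, so replicate 1 lay below and replicates 2 and 3 above all untreated values. Over all libraries the log2 change was 0.01 ± 0.29 SE (edgeR FDR 0.972). With replicate 1 alone it was -0.83, short of 2-fold.

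Ranked by the mean of GB2-treated replicates 2 and 3 over replicate 1, the members with the largest ratios were Scd1 (5.57), Elovl6 (2.33), Fasn (1.82), Acat2 (1.55) and Hmgcs1 (1.34). The ratio was 1.04 for Scd2, 1.02 for Dhcr7 and 0.869 for Mvd. Fasn and Acat2 were thus further below the untreated libraries in replicate 1, which had hardly any hepatocyte marker transcripts, than in replicates 2 and 3.

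**Figure D3:**
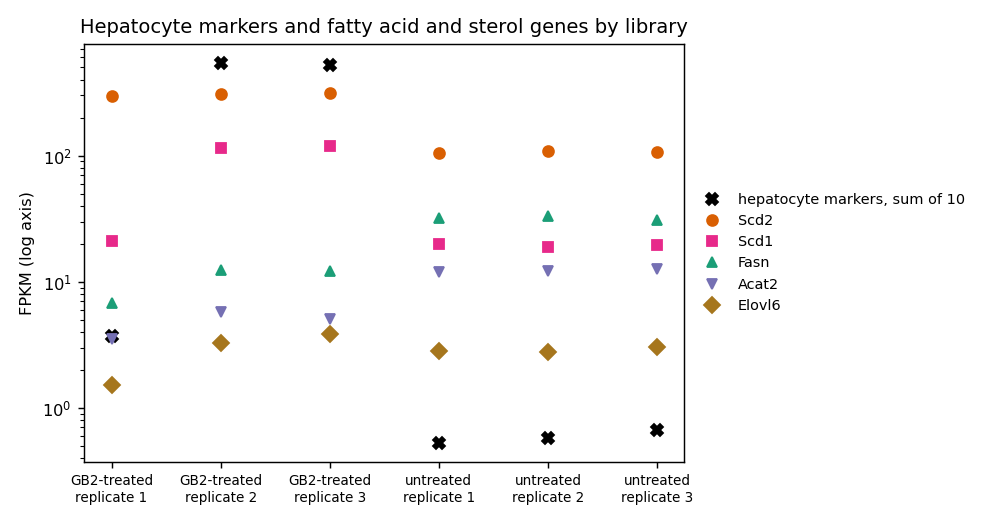
FPKM on a log axis of the 10 summed hepatocyte markers (crosses) and of Scd2, Scd1, Fasn, Acat2 and Elovl6 in each of the 6 libraries. The marker sum is 3.75 FPKM in GB2-treated replicate 1, 542 and 523 FPKM in replicates 2 and 3, and under 1 FPKM in untreated libraries, and Scd1 is high in the same replicates 2 and 3 whereas Scd2 is at a like level in all GB2-treated libraries.

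The desaturases of polyunsaturated fatty acids differed from each other. Fads1, which acts late in making arachidonic acid, stood at 32.0, 34.0 and 33.9 FPKM in GB2-treated libraries, against 58.2, 57.4 and 56.8 FPKM in untreated libraries (log2 change -0.77 ± 0.04 SE, edgeR FDR 4.38e-06). Its groups were well apart, at a 1.70-fold difference. Fads2, which makes the first desaturation, stood at 33.6, 37.9 and 38.7 FPKM in GB2-treated libraries, against 35.55, 34.96 and 35.6 FPKM in untreated libraries, with overlap (log2 change 0.07 ± 0.05 SE, edgeR FDR 0.301). The 8 oxygen-using members (Sqle, Cyp51, Msmo1, Sc5d, Scd1, Scd2, Fads1 and Fads2) held 0 called lower (against 7.73% of all tested genes) and 2 called higher (25%, against 13.4%). Leaving out GB2-treated replicates 2 and 3 reduced the higher calls to 1, since Scd1 was lost. The FDR alone was passed by 4 that were lower (50%, against 29.6%) and 2 higher (25%, against 26.8%).

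Of the 6 genes of SREBP control and sterol transport, 0 were called in either direction (against 7.73% lower and 13.4% higher of all tested genes), and 2 were lower (33.3%, against 29.6%) and 2 higher (33.3%, against 26.8%) at the FDR alone. Insig1, itself a known SREBP target, stood at 15.9, 14.0 and 16.2 FPKM in GB2-treated libraries, against 19.91, 20.05 and 20.02 FPKM in untreated libraries (log2 change -0.36 ± 0.05 SE, edgeR FDR 0.000628). Insig2, the other anchor protein, stood at 18.2, 17.0 and 18.2 FPKM in GB2-treated libraries, against 12.0, 11.5 and 12.1 FPKM in untreated libraries (log2 change 0.60 ± 0.04 SE, edgeR FDR 1.07e-05). Insig1 was thus lower and Insig2 higher, neither by 2-fold, and Insig2 ranked 9 of the 32 genes by level in GB2-treated libraries and 20 in untreated libraries.

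Srebf1 stood at 27.4, 27.1 and 28.6 FPKM in GB2-treated libraries, against 18.3, 19.1 and 17.7 FPKM in untreated libraries (log2 change 0.61 ± 0.04 SE, edgeR FDR 1.51e-05). The groups did not overlap at this 1.53-fold difference. Srebf2 stood at 35.5, 37.8 and 37.5 FPKM in GB2-treated libraries, against 36.4, 35.4 and 34.4 FPKM in untreated libraries, with overlap (log2 change 0.08 ± 0.05 SE, edgeR FDR 0.189). Scap, the escort of the SREBP precursors, stood at 4.24, 4.41 and 4.32 FPKM in GB2-treated libraries, against 6.47, 7.07 and 6.71 FPKM in untreated libraries (log2 change -0.62 ± 0.05 SE, edgeR FDR 3.62e-05). Scap was lower in every GB2-treated library, and 13.2% of its exonic bases overlap 5830462I19Rik on the opposite strand. Stard4, a soluble carrier that moves cholesterol between membranes, had a log2 change of -0.02 ± 0.06 SE with overlapping groups (edgeR FDR 0.843). These values are transcript levels and do not measure the processing of SREBP proteins.

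Ratios within a library put related genes on a common footing, since library size cancels. Over 5 pairs, an exact two-sided permutation test of 3 against 3 libraries cannot go below p = 0.1, so no pair could pass 0.05. The log2 ratio of Insig1 to Insig2 averaged -0.21 ± 0.06 in GB2-treated and 0.75 ± 0.04 in untreated libraries (SD, n = 3 each), a difference of -0.97 (exact permutation p = 0.1, 0.125 adjusted over the 5 pairs). Thus Insig2 was the more abundant transcript per length in every GB2-treated library, and Insig1 in every untreated library. The log2 ratio of Fads1 to Fads2 averaged -0.14 ± 0.06 in GB2-treated and 0.70 ± 0.02 in untreated libraries, a difference of -0.84 with the same exact p, and its sign also differed between the groups in every library.

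The log2 ratio of Srebf1 to Srebf2 averaged -0.41 ± 0.06 in GB2-treated and -0.95 ± 0.05 in untreated libraries, a difference of 0.53. That of Elovl6 to Fasn averaged -1.91 ± 0.24 in GB2-treated and -3.48 ± 0.12 in untreated libraries, a difference of 1.57. Neither pair overlapped between groups, and both had the same exact permutation p of 0.1. The log2 ratio of Scd1 to Scd2 was -3.83, -1.41 and -1.41 in GB2-treated libraries, against -2.39, -2.53 and -2.43 in untreated libraries. Its groups overlapped (difference 0.24, exact permutation p = 1), with GB2-treated replicate 1 below and replicates 2 and 3 above all untreated libraries. Without replicates 2 and 3 the difference was -1.38.

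**Figure D4:**
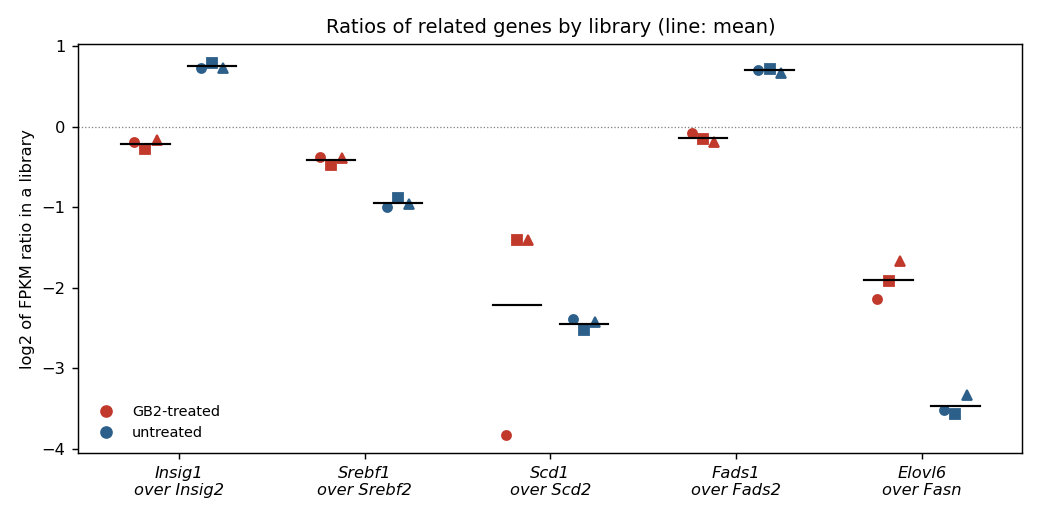
Log2 ratio of FPKM between related genes within each library (vertical axis) for 5 pairs, with GB2-treated libraries to the left of untreated ones, symbols for the replicate number and lines for the means. Insig1 over Insig2 and Fads1 over Fads2 are below 0 in all GB2-treated and above 0 in all untreated libraries, and Scd1 over Scd2 is -3.83 in GB2-treated replicate 1 against -1.41 in replicates 2 and 3.

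Genes around the pathway were counted in 6 lists. Of all tested genes, 7.73% were called lower and 13.4% higher, and at the FDR alone 29.6% were lower and 26.8% higher. Of 13 genes for SREBP cleavage and degradation in the endoplasmic reticulum, 0 were called in either direction, and 6 were lower (46.2%) and 3 higher (23.1%) at the FDR alone, with a median log2 change of -0.27. Fbxw7 of this list was called lower (log2 change -1.12) when GB2-treated replicates 2 and 3 were left out. Of 11 genes of the isoprenoid branches (dolichol, ubiquinone and protein prenylation), 0 were called, and 5 were lower (45.5%) and 3 higher (27.3%) at the FDR alone, with a median of -0.08. Of 23 genes of citrate supply, elongation and acyl use, 0 were called lower and 2 higher (8.70%), with 9 lower (39.1%) and 7 higher (30.4%) at the FDR alone and a median of -0.07. Lpin1, a phosphatidate phosphatase of glyceride synthesis, stood at 8.09, 8.45 and 9.11 FPKM in GB2-treated libraries, against 3.51, 3.54 and 3.56 FPKM in untreated libraries (log2 change 1.29 ± 0.04 SE, edgeR FDR 5.23e-07). Me1, the malic enzyme that supplies NADPH for fatty acid synthesis, was the other, at 7.65, 14.4 and 14.9 FPKM in GB2-treated libraries against 5.33, 5.01 and 5.51 FPKM in untreated libraries (log2 change 1.24 ± 0.23 SE, edgeR FDR 0.00277). All GB2-treated libraries of both genes lay above the untreated ones, and Me1 was highest in replicates 2 and 3, without which its log2 change was 0.62 and it was not called.

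Of 10 LXR receptors and targets, 2 were called lower (20%, against 7.73% of all tested genes) and 1 higher (10%, against 13.4%). The FDR alone was passed by 6 that were lower (60%, against 29.6%) and 3 higher (30%, against 26.8%), and the median log2 change was -0.55. Abca1, the cholesterol exporter, stood at 9.91, 10.3 and 10.3 FPKM in GB2-treated libraries, against 5.05, 4.93 and 5.43 FPKM in untreated libraries (log2 change 1.00 ± 0.05 SE, edgeR FDR 1.73e-06). It lay at the 2-fold limit and was called in 8 of 14 alternative fits. Smpdl3a, a secreted phosphodiesterase, stood at 15.7, 13.8 and 14.4 FPKM in GB2-treated libraries, against 57.2, 56.0 and 56.1 FPKM in untreated libraries (log2 change -1.93 ± 0.05 SE, edgeR FDR 1.98e-07). Pltp, the phospholipid transfer protein, stood at 26.5, 24.7 and 25.6 FPKM in GB2-treated libraries, against 57.2, 57.9 and 51.5 FPKM in untreated libraries (log2 change -1.10 ± 0.06 SE, edgeR FDR 3.70e-06). Over all libraries Smpdl3a and Pltp fell and Abca1 rose. Without GB2-treated replicates 2 and 3, 3 genes of the list were called lower and 1 higher, and the median was -0.44. Pltp was then just short of the limit (log2 change -0.99), Smpdl3a (-1.76) and Abca1 (1.03) kept their calls, and the LXR gene Nr1h3 (-1.12) and its partner Rxra (-1.65, 3.15-fold lower) were called lower. Rxra stood at 0.77, 1.72 and 1.84 FPKM in GB2-treated libraries, against 2.83, 2.52 and 2.33 FPKM in untreated libraries, and over all libraries its difference was 1.76-fold.

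Of 8 genes of oxysterol synthesis, esterification and sensing, 7 could be tested, and 1 was called lower (14.3%, against 7.73% of all tested genes), with 4 lower (57.1%) and 1 higher (14.3%) at the FDR alone and a median log2 change of -0.44. When GB2-treated replicates 2 and 3 were left out, the log2 change was -1.04 for Hsd3b7 and -1.95 for Sult2b1, a sterol sulfotransferase. Sult2b1 was very low, at 0.06, 0.19 and 0.10 FPKM in GB2-treated libraries, against 0.24, 0.22 and 0.22 FPKM in untreated libraries. Over all libraries Sult2b1 did not pass the test (log2 change -0.93 ± 0.48 SE, edgeR FDR 0.137). Hsd3b7, a dehydrogenase of bile acid synthesis that also clears oxysterols, stood at 6.96, 6.76 and 3.36 FPKM in GB2-treated libraries, against 15.5, 14.7 and 15.4 FPKM in untreated libraries (log2 change -1.39 ± 0.26 SE, edgeR FDR 0.00273). Ch25h, which makes an oxysterol from cholesterol, was too low to test, at up to 0.11 FPKM in GB2-treated and up to 0.04 FPKM in untreated libraries. Of 11 sterol transport genes, 0 were called lower and 1 higher (9.09%, against 13.4% of all tested genes), with 3 lower (27.3%) and 3 higher (27.3%) at the FDR alone and a median log2 change of 0.08. Gramd1a, which carries cholesterol from the plasma membrane to the endoplasmic reticulum, stood at 49.2, 46.1 and 47.5 FPKM in GB2-treated libraries, against 18.9, 19.5 and 17.6 FPKM in untreated libraries (log2 change 1.37 ± 0.05 SE, edgeR FDR 9.86e-07).

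**Figure D5:**
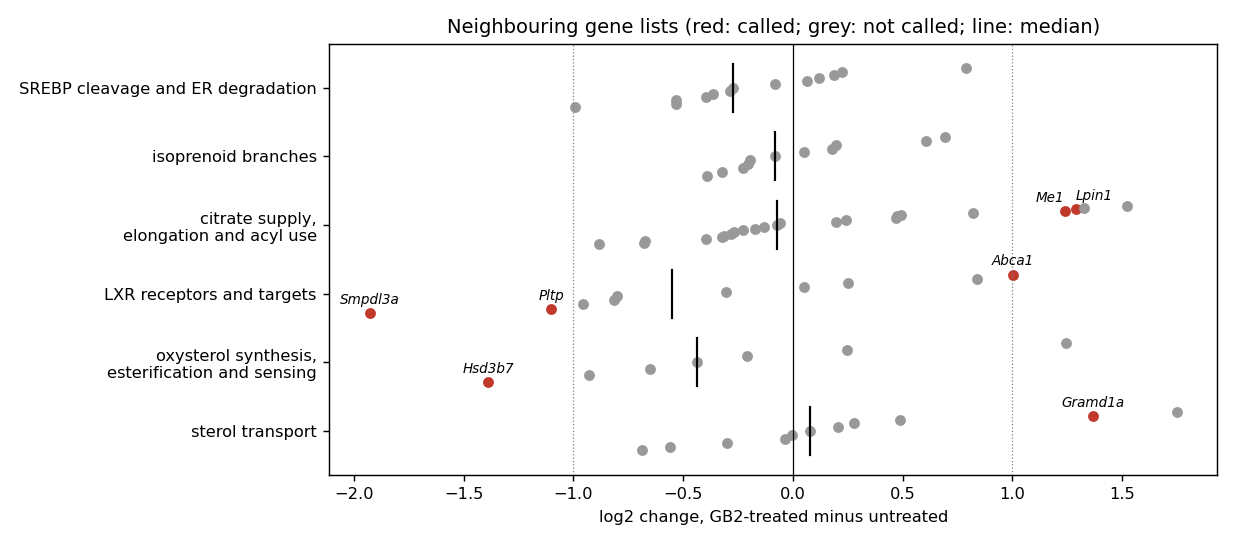
Log2 change, GB2-treated minus untreated (horizontal axis), of each tested gene in the 6 lists around the pathway, with called genes in red, other genes in grey and a black line at each list's median. The called genes are Lpin1, Me1, Abca1 and Gramd1a to the right of 1 and Smpdl3a, Pltp and Hsd3b7 to the left of -1, and the medians lie between -0.55 and 0.08.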

How the data were processed

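RNA of 3 GB2-treated and 3 untreated libraries was compared. The authors deposited estimated counts per gene, already whole numbers, and FPKM values, which relate counts to transcript length and library total. The submitters' notes list HISAT2 2.2.1, StringTie 2.1.6 and cutadapt 1.9 beside edgeR and DESeq2, with the build mm10. The sources used here give neither the annotation release nor the strand setting. Low counts favoured multiples of 4 (952 genes had a count of 4 and 397 a count of 3 in untreated replicate 1), so counts divided by 4 were an alternative.

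Estimated counts were tested in edgeR 4.0.16 (R 4.3.3; TMM, filterByExpr, quasi-likelihood F test, Benjamini-Hochberg over 17124 genes) at the study's limits, FDR under 0.05 and at least 2-fold. SE is the log2 change over the square root of F. Alternatives used DESeq2 1.42.0 and limma 3.58.1 (pseudocounts 1 and 0.1 on FPKM). On simulated data with 16164 genes, 90% of 3-fold and 71% of 1.5-fold changes passed the FDR. With the 2-fold limit added, 90% of 3-fold and 0% of 1.5-fold changes were called. Every pair of libraries within a group differed beyond sampling noise (chi-square per degree of freedom of at least 13.4).

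All members were named by role, with statistics in full for called genes, and up to 4 called genes of each neighbouring list. The members and lists were chosen with earlier results of these data known. Exon overlaps came from GENCODE M21, where 27 members had the deposited start and end.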

Additional observations from a re-analysis of the deposited data

How the results depend on the processing

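Each member's log2 change was recomputed under 14 alternatives. Of 448 values, 411 kept direction and call, 6 lost the call (Scd1), 5 gained it (Fdft1) and 26 changed sign. Acat2, Mvd, Dhcr7, Fasn and Scd2 were called in all 14. Members called lower numbered 4 or 5 (Fdft1) under each, and 16 were lower and 6 higher at the FDR alone. Members called higher numbered 1 under both limma fits and without GB2-treated replicates 2 and 3 together, and 1 to 2 when 1 library was left out (1 without each untreated replicate, where Scd1 was lost). Over all genes, 1324 were called lower and 2300 higher; limma with pseudocount 1 gave 617 and 605, leaving out a library gave 1486 to 3728 higher (3728 without GB2-treated replicate 1), and leaving out GB2-treated replicates 2 and 3 gave 1432 higher. At the FDR alone, Lss did not pass in 9 of 14, and Sc5d passed in 5, Elovl6 and Srebf2 in 2 each and Pmvk in 1. The causes were not tested.

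The sign changes were in 5 genes whose log2 change over all libraries lay between -0.03 and 0.14. With DESeq2 size factors, the DESeq2 Wald test and counts divided by 4, Fdps had log2 changes of 0.0209, 0.0209 and 0.0378, Ebp 0.0125, 0.0125 and 0.0308, and Stard4 0.027, 0.027 and 0.045. Without GB2-treated replicates 2 and 3, Fdps had 0.123, Tm7sf2 -0.036, Stard4 0.0623 and Elovl6 -0.829. Elovl6 also had -0.0172 with no filter, -0.0542 and -0.0979 in limma, and -0.0764 with the replicate block. Leaving out 1 library gave -0.0924 to 0.038 for Fdps, -0.0787 to 0.031 for Stard4 and -0.218 to 0.291 for Elovl6. The difference in the log2 ratio of Scd1 to Scd2 ranged from -0.167 (without GB2-treated replicate 2 or 3) to 1.04 (without replicate 1) and was -1.38 without replicates 2 and 3, and that of Fads1 to Fads2 was -0.77 without both.

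With the replicate block, 4 members were called lower and 2 higher, as without it. Deviations of same-numbered libraries correlated at 0.00444 to 0.0547, and 5 of 6 libraries correlated best with their own number. These values cannot decide whether replicate numbers pair the libraries, since the deviations also hold the division of GB2-treated replicate 1 from replicates 2 and 3. With 3 libraries a group and 1 GB2-treated library with few hepatocyte transcripts, the values from that library alone assume that it varies like the untreated ones.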

Other observations

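Some genes around the pathway that were not called, and were singled out after their values were seen, lay close to the limit or moved with the library division. Fbxw7, part of the ubiquitin ligase that degrades active SREBP in the nucleus, stood at 2.79, 3.70 and 3.08 FPKM in GB2-treated libraries, against 6.30, 6.37 and 6.66 FPKM in untreated libraries, a 1.99-fold difference (log2 change -0.99 ± 0.11 SE, edgeR FDR 0.000147). Its groups were well apart, and it was called lower in 7 of 14 alternative fits. Erlin1, an endoplasmic reticulum protein that binds cholesterol and restrains SREBP, had a log2 change of 0.79 ± 0.05 SE (edgeR FDR 7.40e-06), short of 2-fold. Mid1ip1, an activator of acetyl-CoA carboxylase, had a log2 change of -0.89 ± 0.05 SE (edgeR FDR 6.12e-06), also short of 2-fold.

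Acacb, the carboxylase of the mitochondrial surface, stood at 0.23, 1.6 and 1.61 FPKM in GB2-treated libraries, against 0.35, 0.39 and 0.46 FPKM in untreated libraries, and did not pass the test (edgeR FDR 0.0715). Cyp7b1, an oxysterol hydroxylase, stood at 0.30, 1.07 and 0.91 FPKM in GB2-treated libraries, against 0.30, 0.25 and 0.42 FPKM in untreated libraries (edgeR FDR 0.0622). GB2-treated replicate 1 of both genes lay within or below the untreated range, and replicates 2 and 3 lay above it. The part of hepatocyte, epithelial, muscle or fibroblast transcripts in these values was not tested.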
